A study of Mus musculus with 6 samples.

Results

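The V-ATPase is the proton pump that acidifies lysosomes and, in osteoclasts, the space between the cell and the bone. Its membrane sector, V0, holds the proton channel, and its cytosolic sector, V1, splits ATP to drive it. In V0, the c and c'' subunits form the rotating ring, subunit a carries the proton path and directs the pump to a membrane, subunit d couples the ring to V1, subunit e is a small membrane subunit, and the accessory proteins Ap1 and Ap2 take part in assembly. Several of these subunits exist in alternative forms made from separate genes, and d2 and a3 are the forms known for the osteoclast.

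The 10 genes of V0 and its accessory proteins, *Atp6v0a1*, *Atp6v0a2*, *Atp6v0b*, *Atp6v0c*, *Atp6v0d1*, *Atp6v0d2*, *Atp6v0e*, *Atp6v0e2*, *Atp6ap1* and *Atp6ap2*, were read in the RNA of osteoclast precursors (OCPs). They were chosen by gene name, and all 10 were found among the 57180 genes of the count table. OCPs were bone marrow-derived macrophages of WT C57BL/6 mice and of mice lacking the long non-coding RNA lincRNA-EPS (KO), with 3 libraries per genotype. Both genotypes received M-CSF at 40 ng/ml for 24 h and then RANKL, the cytokine that drives osteoclast differentiation, at 40 ng/ml for 48 h. The study names the knockout lincRNA-EPS-/- and gives no tissue or time of deletion. Each replicate there is a separate mouse or a separate culture, so libraries of 1 genotype may share a mouse.

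Library totals ranged from 17757351 to 19998611 estimated counts. *Ttc39aos1*, the gene of lincRNA-EPS, had 20, 37 and 41 counts in the WT libraries and 0 in every KO library. Levels are given as CPM, counts scaled to a common library size with TMM, a factor that evens out differences in library composition. The 13428 genes with enough counts were compared with edgeR's quasi-likelihood test and Benjamini-Hochberg adjustment over all of them. A gene passed the limits when its adjusted p was below 0.01 and its fold change exceeded 1.3, which is 0.379 on the log2 scale. The study writes its fold change limit on the log2 scale, so the limit used here is the wider one. With 1.3 taken as a log2 value, 0 members passed in any of the fits, since the largest member value in them was 0.96. The genes of the table past both limits then numbered 1 in edgeR, without and with the GC correction described next, 3 with DESeq2 and 6 with DESeq2 and the correction. Of all the listed genes described further on, *Retnlg* alone was among them, with DESeq2 and the correction, so every other call of a listed gene given further on rests on the wider limit. The libraries also differed in how counts depended on the GC content of the gene. The slope was near 0 in 4 libraries, between -0.045 and 0.088 on the log2 scale per 10 points of GC content, but 0.337 in WT replicate 2 and -0.465 in KO replicate 3. GC-corrected values, in which this trend is removed from each library, are therefore given beside the uncorrected ones where they differ, and so are values without those 2 libraries. The GC trend was higher in all WT libraries than in any KO library, so its part and that of the genotype cannot be fully told apart.

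The 2 forms of subunit d differ enough in sequence for their reads to be told apart. Over 1050 aligned coding bases, *Atp6v0d1* and *Atp6v0d2* were 65.9% identical, and the longest run they shared was 17 bases, at coding positions 160 to 176 of both. In GRCm38 *Atp6v0d1* lies on the minus strand of chromosome 8 (chr8:105524465-105566047) and *Atp6v0d2* on the minus strand of chromosome 4 (chr4:19876841-19922605). The positions are those of the annotation, since the submitters' notes name GRCm39 for the counts.

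*Atp6v0d2*, the d subunit form that is abundant in osteoclasts, was higher in KO OCPs and showed the largest difference of the 10 genes. It measured 228, 177 and 223 CPM in the WT libraries and 339, 353 and 461 CPM in the KO libraries. The lowest KO library was above the highest WT library, WT replicate 2 was the lowest of all and KO replicate 3 the highest. The mean was 209 ± 28.1 CPM (SD, n = 3) in WT and 384 ± 67.1 CPM (SD, n = 3) in KO, a log2 fold change of 0.88 (SE 0.15). It ranked 23 of 13428 genes by p-value in edgeR, but its adjusted p was 0.136, above the limit. In these bulk libraries, more *Atp6v0d2* RNA per cell and more cells that express it cannot be told apart.

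The 2 libraries with a steep GC trend held the extremes of *Atp6v0d2*, which is poor in GC (41.6%, against a median of 49.2% over all genes tested). After the GC correction it measured 234, 212 and 232 CPM in WT and 341, 346 and 364 CPM in KO. The genotypes stayed apart, and the SD fell from 28.1 to 12.1 CPM in WT and from 67.1 to 11.7 CPM in KO. The corrected log2 fold change was 0.63 (SE 0.066) with an adjusted p of 0.0106 in edgeR, just above the limit. With WT replicate 2 and KO replicate 3 left out and no correction, it was 0.62 (SE 0.061) with an adjusted p of 0.00479 in edgeR, which is past both limits. DESeq2's Wald test put it past both limits without the correction (adjusted p = 2.25e-05) and with it (adjusted p = 6.72e-12). It was 1 of 126 genes that DESeq2 called without the correction, 1.22% of the 10357 genes to which it gave an adjusted p, and 1 of 336 genes with it, 3.03% of 11082. The DESeq2 fits also differed in the genes entered, 24761 without the correction and 13428 with it.

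*Atp6v0d1*, the d subunit form found in most tissues, measured 250, 260 and 254 CPM in WT and 243, 266 and 221 CPM in KO. The genotypes overlapped, with KO replicate 3 the lowest and KO replicate 2 the highest, and the log2 fold change was -0.07 (SE 0.097, adjusted p = 0.678 in edgeR). It was 0.06 (SE 0.065) after the GC correction, so its sign depended on the correction.

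The 2 forms were also set against each other within each library, which needs no scaling between libraries. The count of *Atp6v0d2* was 0.909, 0.681 and 0.878 times that of *Atp6v0d1* in the WT libraries and 1.39, 1.33 and 2.09 times in the KO libraries. Each WT library therefore held fewer counts of *Atp6v0d2* than of *Atp6v0d1*, and each KO library more. The mean log2 ratio was 0.94 higher in KO (exact two-sided permutation p = 0.1, the smallest that 3 libraries against 3 can give). After the GC correction the ratio was 0.948, 0.896 and 0.934 in WT and 1.40, 1.28 and 1.47 in KO, and the difference on the log2 scale was 0.58 (exact two-sided permutation p = 0.1). Without WT replicate 2 and KO replicate 3 and with no correction it was 0.60, over 1.5 times smaller than with all libraries. Other ratios of members also kept the genotypes apart. The log2 ratio of *Atp6v0b* to *Atp6v0c* was 0.21 higher in KO, and 0.33 after the GC correction, without overlap in either. That of *Atp6ap2* to *Atp6ap1* was 0.40 higher without overlap, and 0.07 higher with overlap after the correction. Per transcript length, *Atp6v0d2* made up 34.4% ± 3.51 (SD, n = 3) of the counts of both d forms in WT and 50.1% ± 6.22 (SD, n = 3) in KO. KO replicate 3 was the highest at 57.3%. The ratio of *Atp6v0d2* to *Atp6v0d1* per transcript length was 0.528 in WT and 1.03 in KO. After the GC correction it was 0.594 ± 0.0171 in WT and 0.889 ± 0.0595 in KO (SD, n = 3).

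**Figure D1:**
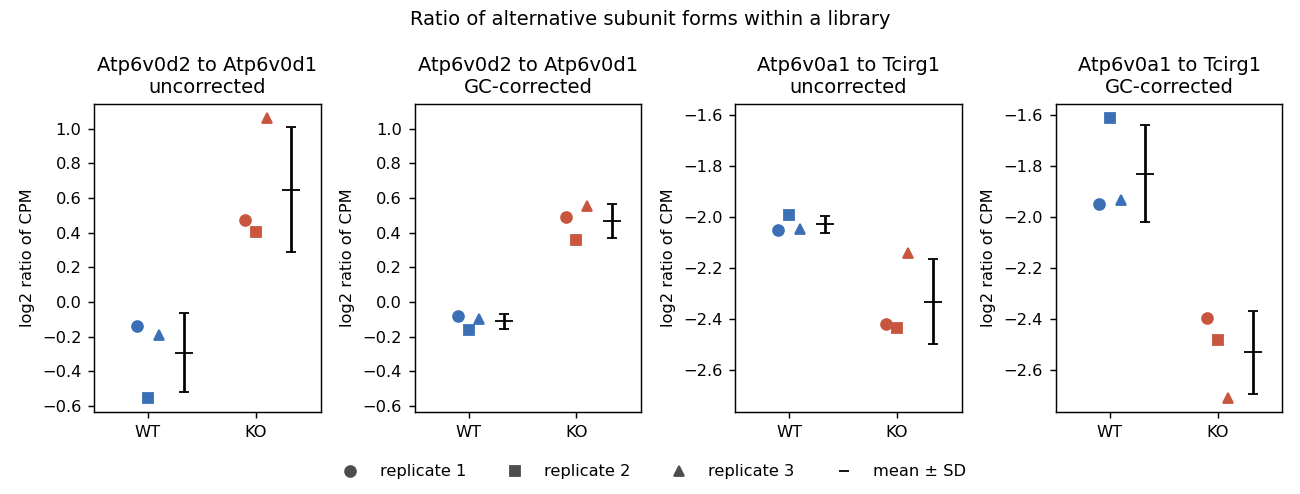
Log2 ratio of CPM within each library for *Atp6v0d2* to *Atp6v0d1* and for *Atp6v0a1* to *Tcirg1*, uncorrected and GC-corrected; symbols are libraries and bars the mean ± SD of 3. In each panel WT and KO are apart, and the GC correction brings KO replicate 3 nearer to the other KO libraries for the d forms, from 1.06 to 0.55.

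*Atp6v0a1*, the a1 form of subunit a, differed in the opposite direction. It measured 203, 256 and 203 CPM in WT and 174, 160 and 143 CPM in KO. The highest KO library was below the lowest WT library, with WT replicate 2 the highest and KO replicate 3 the lowest. The log2 fold change was -0.48 (SE 0.12, adjusted p = 0.147 in edgeR). Unlike that of *Atp6v0d2*, this difference became larger after the GC correction, at -0.56 (SE 0.13, adjusted p = 0.0630 in edgeR), and past both limits with DESeq2 and the correction (adjusted p = 0.000864). With WT replicate 2 and KO replicate 3 left out it was -0.28 (SE 0.067, adjusted p = 0.0905 in edgeR), so its size depended on those libraries by more than 1.5 times.

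*Atp6v0a2*, the a2 form known from the Golgi and endosomes, measured 65.9, 66.4 and 62.2 CPM in WT and 62.3, 58.1 and 56.2 CPM in KO. WT replicate 3 and KO replicate 1 were nearly equal, and the log2 fold change was -0.14 (SE 0.091, adjusted p = 0.341 in edgeR), and -0.09 both after the GC correction and without WT replicate 2 and KO replicate 3. *Tcirg1*, the a3 form of the osteoclast and no member of the set, measured 840, 1019 and 841 CPM in WT and 931, 865 and 629 CPM in KO, with a log2 fold change of -0.16 (SE 0.16). The genotypes overlapped, and WT replicate 2 was highest and KO replicate 3 lowest. *Tcirg1* is rich in GC (58.6%), and the GC correction turned its log2 fold change to 0.15 (SE 0.064, adjusted p = 0.188 in edgeR). Its corrected values were 798, 820 and 792 CPM in WT and 919, 886 and 863 CPM in KO, without overlap.

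Per transcript length, *Tcirg1* gave most of the counts of the 3 expressed a forms, 81.5% ± 0.0876 (SD, n = 3) in WT and 83.8% ± 1.76 (SD, n = 3) in KO. *Atp6v0a1* gave 14.9%, 15.5% and 15.0% in the WT libraries and 12.0%, 11.9% and 14.1% in the KO libraries, so that WT and KO did not overlap. The log2 ratio of *Atp6v0a1* to *Tcirg1* was 0.30 lower in KO, and 0.70 lower after the GC correction (exact two-sided permutation p = 0.1 for both). With the correction the SD of this ratio rose from 0.034 to 0.19 in WT and was 0.17 before and 0.16 after it in KO, with WT replicate 2 and KO replicate 3 at the extremes of the corrected values. The 4 other libraries gave a log2 difference of -0.38 without the correction. The log2 ratio of *Atp6v0a2* to *Tcirg1* was 0.03 higher in KO, with overlap. After the GC correction it was 0.24 lower in KO, without overlap (exact two-sided permutation p = 0.1). *Atp6v0a4*, the a4 form of the kidney, was at 0 in all 6 libraries. The longest coding run that *Atp6v0a1* shared with *Tcirg1* was 29 bases, and with *Atp6v0a2* 23 bases.

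The ring genes showed no difference of the size seen for *Atp6v0d2*. *Atp6v0c*, which encodes the c subunit that makes up most of the ring, was the most abundant of the 10 genes at 2139, 2211 and 2142 CPM in WT and 2316, 2300 and 1747 CPM in KO. KO replicates 1 and 2 were above all WT libraries and KO replicate 3 was below them. The log2 fold change was -0.03 (SE 0.13, adjusted p = 0.897 in edgeR), 0.05 after the GC correction and 0.11 (SE 0.059) without WT replicate 2 and KO replicate 3. Its processed copies are nearly identical to it, 99.8% for *Atp6v0c-ps2* and 97.6% for *Atp6v0c-ps1*, and the counting gave them at most 1.16 counts in a library, so the counts of *Atp6v0c* may include reads of a copy.

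*Atp6v0b*, which encodes the c'' subunit, measured 411, 382 and 407 CPM in WT and 457, 499 and 400 CPM in KO. KO replicate 3 fell among the WT libraries and the other 2 KO libraries lay above them, with a log2 fold change of 0.18 (SE 0.11, adjusted p = 0.301 in edgeR). This GC-rich gene (55.9%) measured 400.1, 329 and 394 CPM in WT and 455, 507 and 489 CPM in KO after the correction, without overlap. The corrected log2 fold change was 0.37 (SE 0.088, adjusted p = 0.0688 in edgeR), and its adjusted p was 0.00425 with DESeq2 and the correction, where the fold change stayed just under the limit. Without WT replicate 2 and KO replicate 3 and with no correction it was 0.22 (SE 0.065, adjusted p = 0.131 in edgeR).

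*Atp6v0e*, the e1 form of the small membrane subunit, measured 218, 166 and 222 CPM in WT and 258, 289 and 225 CPM in KO. The genotypes did not overlap, but KO replicate 3 was only slightly above WT replicate 3. The log2 fold change was 0.35 (SE 0.14, adjusted p = 0.166 in edgeR). After the GC correction KO replicate 3, at 195 CPM, fell among the WT libraries, and the log2 fold change was 0.22 (SE 0.14). It was 0.32 without WT replicate 2 and KO replicate 3. *Atp6v0e2*, the e2 form known from the brain, had 3, 1 and 8.57 counts in WT and 3.01, 3 and 9.28 counts in KO, too few to be tested. With 3 counts taken as the floor (0.150 to 0.173 CPM in these libraries), 4 of its 6 libraries were at or near it, so a lower level or a small difference in KO could not have been detected at this depth.

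*Atp6ap2*, also called the prorenin receptor, measured 343, 284 and 330 CPM in WT and 365, 425 and 544 CPM in KO. The genotypes did not overlap, with KO replicate 3 far above the other libraries, and the log2 fold change was 0.48 (SE 0.15, adjusted p = 0.147 in edgeR). It is the member poorest in GC (40.5%), and its corrected values were 354, 350 and 345 CPM in WT and 369, 415 and 417 CPM in KO. The corrected log2 fold change was 0.19 (SE 0.069, adjusted p = 0.127 in edgeR), under the fold change limit, and 0.23 without WT replicate 2 and KO replicate 3. *Atp6ap1*, the other accessory subunit, measured between 486 and 508 CPM in WT and between 487 and 545 CPM in KO, with a log2 fold change of 0.07 (SE 0.090, adjusted p = 0.648 in edgeR). After the GC correction it measured between 482 and 485 CPM in WT and between 487 and 573 CPM in KO, without overlap, and the log2 fold change was 0.13 (SE 0.073, adjusted p = 0.296 in edgeR). Without WT replicate 2 and KO replicate 3 it was 0.05.

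**Figure D2:**
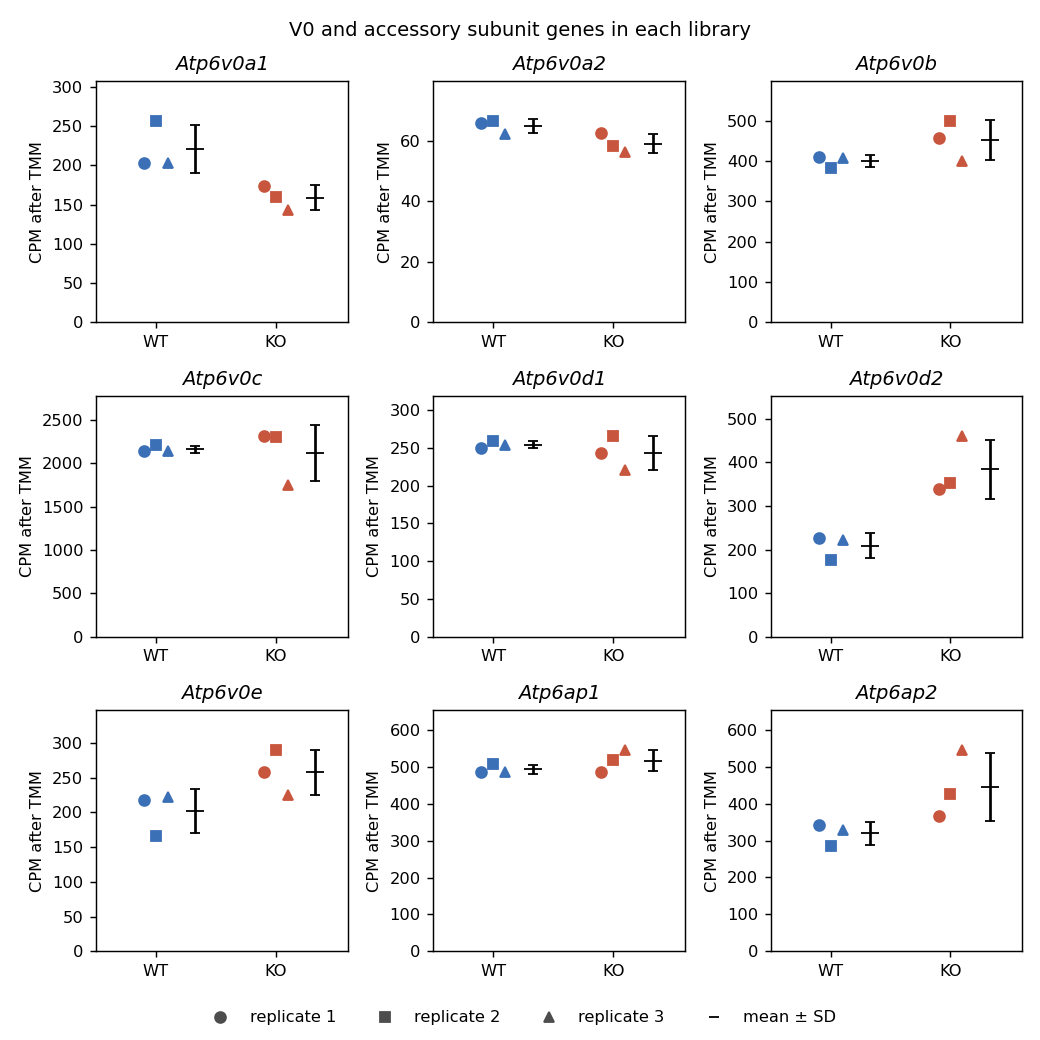
CPM after TMM of the 9 tested genes in each library, on axes that start at 0, with the mean ± SD of 3 libraries per genotype. WT and KO are apart for *Atp6v0d2*, *Atp6ap2* and *Atp6v0e*, which are higher in KO, and for *Atp6v0a1*, which is lower.

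Of the 10 genes, 9 had enough counts to be tested, and 0 of them passed the limits in edgeR. Of all 13428 genes 1 passed, 0.00745%, and it was *Dtx3l*. At an unadjusted p under 0.05, 3 of the 9 were higher in KO (*Atp6v0d2*, *Atp6ap2* and *Atp6v0e*), where 13.0% of all genes were, and 1 was lower (*Atp6v0a1*), where 13.2% of all genes were. The same 3 genes had every KO library above every WT library, as did 16.9% of all genes, and *Atp6v0a1* had every KO library below, as did 18.8%. The set as a whole was not tested against other genes. The median log2 fold change of the 9 was 0.07, and that of all genes tested was 0.0091.

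The same counts were taken on GC-corrected values. At an unadjusted p under 0.05, *Atp6v0d2*, *Atp6v0b* and *Atp6ap2* were higher, against 12.0% of all genes, and *Atp6v0a1* was lower, against 14.1%. Every KO library was above every WT library for these 3 and for *Atp6ap1*, as for 14.7% of all genes, and below for *Atp6v0a1*, as for 17.8%. In edgeR with the correction 4 genes of the table passed both limits (0.0298%), *Dtx3l*, *Dcstamp*, *Parp14* and *Gvin1*, and 0 of the 9 did.

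The GC trend of the libraries moved with the values of several members. The trend fitted to each library shifted *Atp6v0d2* by -0.26 on the log2 scale in WT replicate 2 and by 0.34 in KO replicate 3. Averaged over each genotype, it made the KO minus WT difference 0.27 larger for *Atp6ap2*, 0.24 larger for *Atp6v0d2* and 0.15 larger for *Atp6v0e*, and 0.20 smaller for *Atp6v0b*. For *Atp6v0a1* the shift was 0.08, opposite in sign to its difference. Across all genes tested with a GC value, the log2 fold change had r = -0.51 with GC content, and genes are not independent replicates. The 4 libraries with a flat slope, without correction, gave log2 fold changes of the same sign as the GC-corrected ones for all 9 members.

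**Figure D3:**
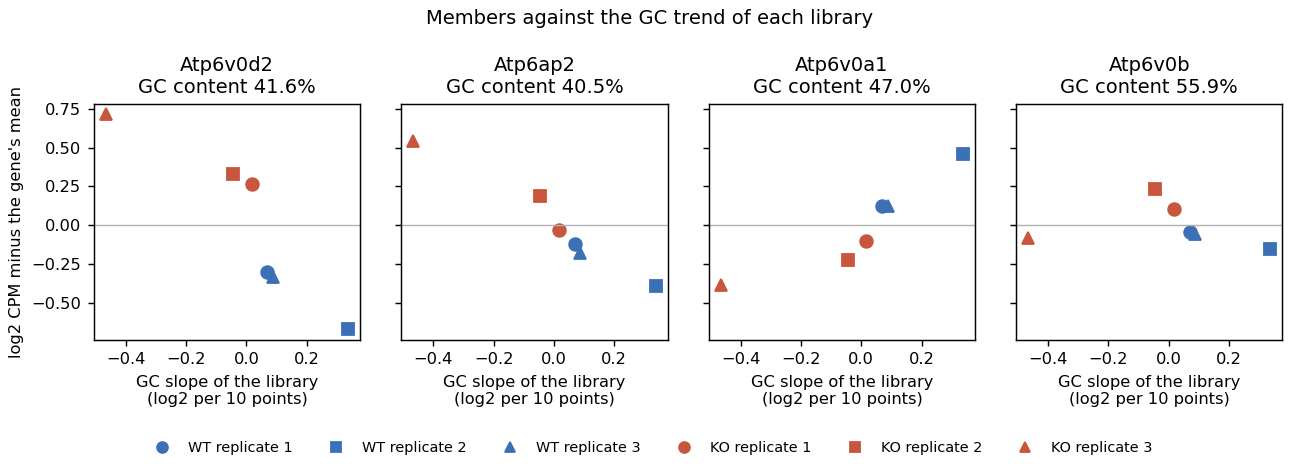
Log2 CPM minus the gene's mean over 6 libraries, against the GC slope of each library in log2 per 10 points of GC content; colours are genotypes and symbols replicates. KO replicate 3 at -0.465 and WT replicate 2 at 0.337 stand apart on the horizontal axis and hold the extreme values of *Atp6v0d2*, *Atp6ap2* and *Atp6v0a1*.

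**Figure D4:**
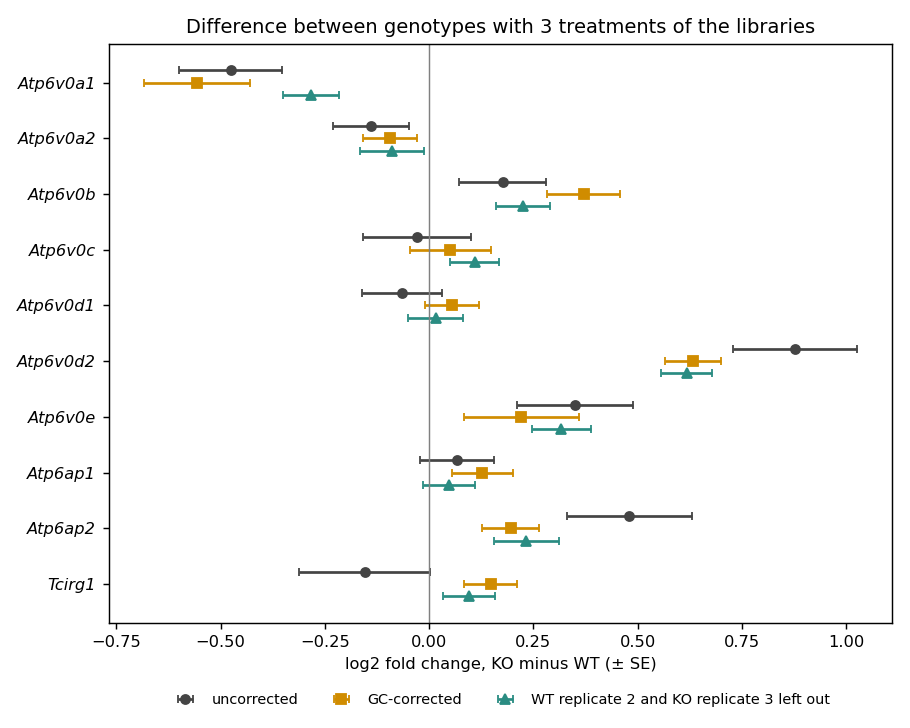
Log2 fold change of KO minus WT with its SE for the 9 tested genes and *Tcirg1*, uncorrected, GC-corrected, and with WT replicate 2 and KO replicate 3 left out. *Atp6v0d2* stays highest at 0.88, 0.63 and 0.62, and *Atp6v0c*, *Atp6v0d1* and *Tcirg1* change sign.

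Per kilobase of transcript, *Atp6v0c* was highest in both genotypes (1829 ± 34.3 CPM per kb in WT, SD, n = 3), followed by *Atp6v0b* (400.2 ± 15.9) and *Atp6ap1* (226 ± 5.59). These 3 differed from each other by more than their spread. In WT, *Atp6v0d1* came next (156 ± 2.92) and *Atp6v0d2* stood lower (82.4 ± 11.1). In KO the 2 d forms did not differ beyond their spread without the GC correction, at 149 ± 14.0 for *Atp6v0d1* and 151 ± 26.4 for *Atp6v0d2*. After the correction the ratio of *Atp6v0d2* to *Atp6v0d1* per transcript length was 0.889 ± 0.0595 (SD, n = 3) in KO. *Atp6v0d2* then stayed below *Atp6v0d1* in KO too. The lengths are those of the longest principal GENCODE transcript, and the place of *Atp6v0e* depended on them: it was 71.8 CPM per kb in WT with the longer of its 2 principal transcripts and 245 with the shorter. *Atp6v0a1* (55.1 ± 7.68 in WT), *Atp6v0a2* (12.1 ± 0.426) and *Atp6v0e2* (0.126 ± 0.122) were lowest in that order.

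The cytosolic V1 sector was described next to V0, from 13 genes. Of its 9 tested genes, 8 had a log2 fold change above 0, 6 were higher at an unadjusted p under 0.05 (13.0% of all genes), 0 were lower (13.2% of all genes) and 0 passed the limits in edgeR. The 4 with the lowest p were *Atp6v1d* (log2 fold change 0.64, SE 0.14), *Atp6v1h* (0.43, SE 0.11), *Atp6v1g1* (0.37, SE 0.10) and *Atp6v1c1* (0.35, SE 0.12), with edgeR adjusted p from 0.147 to 0.149, and DESeq2 put *Atp6v1d* alone of the 9 past both limits, without and with the correction (1.22% and 3.03% of all genes). The median of the 9 was 0.34, and 0.31 after the GC correction, against 0.07 and 0.13 in V0. The difference between the sectors was not tested. *Atp6v1h*, a regulatory subunit of V1, was 0.07 after the correction, while *Atp6v1d*, which forms part of the central stalk, was 0.43. *Atp6v1c1* was 0.19 and *Atp6v1g1* 0.33 after it. *Atp6v1b1*, *Atp6v1c2*, *Atp6v1e2* and *Atp6v1g3*, forms known from other tissues, were at 0 in every library.

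**Figure D5:**
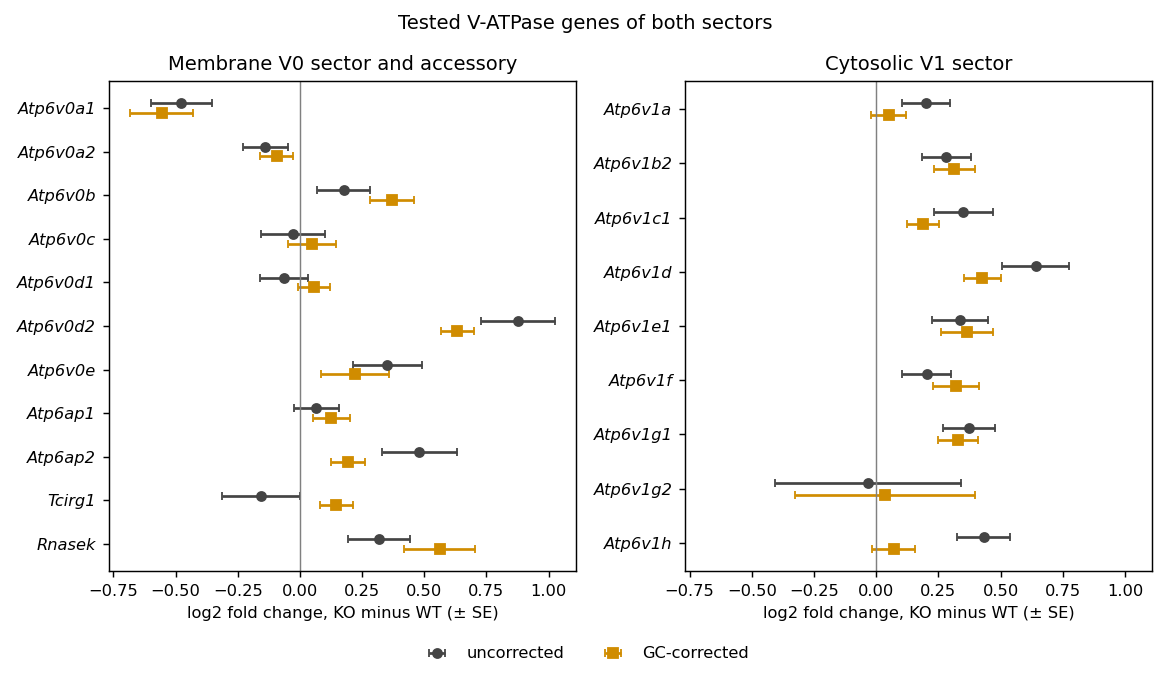
Log2 fold change of KO minus WT with its SE for the tested genes of V0 with its accessory genes and of V1, uncorrected and GC-corrected. The V1 genes other than *Atp6v1g2* lie above 0 in both, and the V0 genes lie on both sides, from -0.48 for *Atp6v0a1* to 0.88 for *Atp6v0d2* without the correction.

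Genes that work with the pump were described against the same shares of all genes at an unadjusted p under 0.05 in edgeR, 13.0% higher and 13.2% lower, or 12.0% and 14.1% with the GC correction, and 0 of them passed the limits there. DESeq2 put *Car2* past both limits (adjusted p = 0.000505), as it did 1.22% of all genes, and with the GC correction also *Snx10* (adjusted p = 0.00149) and *Rnasek* (adjusted p = 0.00207), as it did 3.03%. *Rnasek*, which encodes a small V0-associated protein, was higher at that p (log2 fold change 0.32, SE 0.12, adjusted p = 0.163 in edgeR) and 0.56 after the correction. Among 10 tested assembly genes, *Tmem199* (0.32) and *Vma21* (0.58) were higher at that level and 0 were lower, and *Vma21* was 0.19 after the correction. With the correction 1 was higher (12.0% of all genes) and 4 were lower (14.1%) at that level. Among 8 genes of acid secretion, 2 were higher at that level, *Car2* (0.51, SE 0.093), the carbonic anhydrase that supplies protons, and *Snx10* (0.69, SE 0.18), a sorting nexin of the ruffled border, and *Plekhm1* (-0.49, SE 0.15) was lower, with -0.30 after the correction. Among 6 genes of the MiT transcription factors and their regulators, *Mitf* was higher (0.25) and *Flcn* (-0.43), *Tfeb* (-0.52) and *Tfe3* (-0.30) were lower. After the correction *Mitf* was 0.07, *Flcn* -0.27, *Tfeb* 0.02 and *Tfe3* -0.21, and 0 of the 6 were higher and 2 lower at that level, against the same 12.0% and 14.1%.

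MiT factors bind DNA at sequences that contain CACGTG. These letters were searched in RefSeq promoters of GRCm38.p6, from 250 bases before to 50 bases after each start, and since the motif reads the same on both strands one search covers both. It was found in 8.09% of 27025 genes and in 3 of the 8 members with an entry. The 3 members with a match are shown from 50 bases before to 20 bases after the start, 5′ to 3′ on the gene's strand, with CACGTG in capitals.
Atp6v0b: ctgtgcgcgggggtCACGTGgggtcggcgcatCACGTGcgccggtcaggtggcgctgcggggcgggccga
Atp6v0d1: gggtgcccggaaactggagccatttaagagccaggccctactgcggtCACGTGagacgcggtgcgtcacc
Atp6v0e: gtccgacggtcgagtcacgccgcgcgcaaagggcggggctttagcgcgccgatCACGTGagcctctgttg
These windows are chr4:117887310-117887379 on the minus strand, chr8:105566045-105566114 on the minus strand and chr17:26676346-26676415 on the plus strand. The motif starts 36 and 18 bases before the start in *Atp6v0b*, 3 bases before it in *Atp6v0d1* and at base 4 after it in *Atp6v0e*. *Atp6v0d2* and *Atp6v0a2* have no entry. The 3 genes with a match had uncorrected log2 fold changes of 0.18, -0.07 and 0.35, in that order.

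In the pathway terms of the deposited table, 9 of the 10 members, all but *Atp6ap2*, carry Transferrin endocytosis and recycling, a Reactome term of 31 genes, and Iron uptake and transport, a term of 53 genes. KEGG's Lysosome term, with 135 genes, holds 7 of them. *Atp6v0a2* and *Atp6v0b* overlap antisense transcripts over 663 and 243 exonic bases, and those transcripts had 0 counts in every library.

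The 5 genes whose pattern over the 6 libraries was most like that of *Atp6v0d2*, among 8867 genes with a mean of at least 10 CPM, were *Edil3*, *Ndufaf4*, *Mir142hg*, *Snhg1* and *S100a9*. Their root mean square difference from it was 0.067 to 0.097 on the log2 scale, after each gene was centred on its mean. *Dcstamp*, which encodes a fusion protein of osteoclast precursors, was number 8, *Ctsk*, the protease cathepsin K, number 10, and *Atp6v1d* number 21. Of the other osteoclast genes in that order, *Oscar* was number 233, *Acp5* 1775, *Mmp9* 3295, *Tnfrsf11a* 4176, *Itgb3* 4342, *Ocstamp* 4495 and *Nfatc1* 5061. The other V1 genes in it ranged from number 463 (*Atp6v1h*) to 2399 (*Atp6v1f*). No member of V0 was nearer than *Atp6ap2*, number 271, and *Atp6v0a1* was number 8088. *Edil3*, *Ndufaf4*, *Snhg1* and *S100a9* are, like *Atp6v0d2*, below the median GC content, at 38.0% to 45.1%, and *Mir142hg* is above it at 59.1%.

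Some marker genes of cell types differed between the genotypes at an unadjusted p under 0.05 in edgeR, a level at which 13.0% of all genes were higher and 13.2% lower. Without the GC correction 0 of them passed the limits in edgeR, and with it *Dcstamp* did. DESeq2 put 3 osteoclast and 4 neutrophil genes past both limits, against 1.22% of all genes, and 5 and 6 with the correction, against 3.03%. Of 10 osteoclast genes, 5 were higher in KO, and the summed level of the 10 was 5024 to 5501 CPM in WT and 6542 to 7081 CPM in KO. The 4 with the lowest p were *Dcstamp* (log2 fold change 0.84, SE 0.099), *Ctsk* (0.77, SE 0.11), *Oscar* (0.70, SE 0.13) and *Acp5* (0.38, SE 0.10), which was 0.58 after the GC correction. *Mmp9*, the largest part of that sum, overlapped, at 2274 to 2784 CPM in WT and 2662 to 3242 CPM in KO (0.28, and 0.46 after the correction). Without the correction *Ocstamp* (0.19), *Nfatc1* (0.03), *Itgb3* (-0.01) and *Tnfrsf11a* (-0.009) did not reach that level either. Of 7 macrophage genes, 3 were lower, *Adgre1* (-0.29, SE 0.085), *Itgam* (-0.25, SE 0.092) and *Cd14* (-0.26, SE 0.10, and -0.15 after the correction). The summed level of the 7 was 16666 to 17805 CPM in WT and 15017 to 17849 CPM in KO, so the genotypes overlapped. *Lyz2* alone, which encodes lysozyme, made up 75.2% to 80.8% of that sum. The other 6 summed to 3757 to 4139 CPM in WT and 3404 to 3514 CPM in KO, without overlap. All 7 had a log2 fold change below 0 without the correction, *Cd68* only just (-0.0035, and 0.11 after the correction), and the median was -0.25, and -0.15 after it. Macrophage and osteoclast genes were both expressed, as the label of RANKL-treated macrophages has it, with *Calcr*, the calcitonin receptor, the lowest at 2.79 to 4.38 CPM.

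Of 10 neutrophil genes, 9 were tested, 6 were higher at the same level and *Mpo* was lower (-0.42, SE 0.16). After the GC correction *Mpo* was -0.20, and 7 were higher and 0 lower. The summed level was 1256 to 1416 CPM in WT and 1681 to 2024 CPM in KO, and *Ly6g*, which defines mature neutrophils, had at most 5 counts in a library. The 4 with the lowest p were *Cxcr2* (1.16, SE 0.18), *S100a9* (0.80, SE 0.14), *Retnlg* (1.56, SE 0.29) and *S100a8* (0.94, SE 0.21). Summed levels of stromal genes (11.0 to 20.9 CPM), lymphoid genes (6.57 to 10.5 CPM) and erythroid genes (0.156 to 0.630 CPM) were low in every library, with *Col1a2* lower in KO (-0.42, SE 0.17, and -0.23 after the correction). *Cd3e* and *Alas2* had at most 1 count in a library, and *Hbb-bt* and *Gzma* had 0. The part of these cell types in the differences of the V0 genes was not tested.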

How the data were processed

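RNA was measured in 3 WT and 3 KO libraries, grouped by the genotype in their labels. The authors deposited estimated counts per gene without normalization, of which 25.14% to 26.59% of the detected genes in a library were not whole, and the per-genotype means in the same table were not used. The submitters' notes name fastp, HISAT2, StringTie, RSEM and GRCm39, without versions. Libraries were stranded mRNA libraries per the labels.

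The members and lists were chosen with earlier results of these data known. Counts were rounded and fitted in R 4.3.3 with edgeR 4.0.16 (filterByExpr, TMM, glmQLFit with legacy = FALSE, glmQLFTest, genotype as the only term). The p-values measure the spread between these libraries. DESeq2 1.42.0 and limma 3.58.1 served as alternatives. For the GC correction, the deviation of each library from the gene mean was fitted by a natural spline (5 df) in the GC content of a gene's longest GENCODE M21 transcript on GRCm38, and the fitted trend was used as an offset. Of the genes tested, 13176 had a GC value. Coordinates are those of GRCm38, not of the build behind the counts. SE is the absolute log2 fold change divided by the square root of F. The floor covers counting error only. Named genes were the 10 members, *Ttc39aos1*, *Tcirg1*, up to 4 genes per direction and list at an unadjusted p under 0.05 with defining genes at or near 0, and the 5 nearest to *Atp6v0d2* in pattern. Places of other list genes in that order, and the few non-member genes past the limits, were added after their values were seen. Other alternatives were other scalings, filters and limits, limma-voom, the legacy edgeR fit, a replicate block and each library left out in turn. A marker gene of each of 2 lists and some sequences are not reported here.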

Additional observations from a re-analysis of the deposited data

How the results depend on the processing

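The number of genes past both limits, 1 in edgeR, was 126 with DESeq2, 4 with the GC correction, 336 with DESeq2 and the GC correction, 8 without WT replicate 2 and KO replicate 3, and 119 with the GC correction at an adjusted p under 0.05. The first 4 of these numbers were 0.00745%, 1.22%, 0.0298% and 3.03% of all genes, in that order. With single libraries left out the number ranged from 0 to 2. The V0 members past both limits numbered 0 in edgeR and 0 with any single library left out, 1 with DESeq2, without WT replicate 2 and KO replicate 3, or with the GC correction at an adjusted p under 0.05 (*Atp6v0d2* each time), and 2 with DESeq2 and the GC correction. The cause was not tested. With 1.3 read as a log2 limit, 1 gene and 0 members passed in edgeR. Settings without both libraries, with the log2 limit, with DESeq2 and the correction together, and with the correction at an adjusted p under 0.05 were chosen after seeing the data.

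The log2 fold change of *Atp6v0c* turned from -0.03 to 0.050 with the GC correction, 0.053 with DESeq2 and the correction, 0.044 with the replicate block and GC correction and 0.11 without both libraries, and ranged from -0.093 to 0.094 (without KO replicate 3) with single libraries left out. That of *Atp6v0d1* turned from -0.07 to 0.055, 0.058, 0.054 and 0.015 in that order, with a range of -0.14 to 0.00094 (without KO replicate 3). That of *Tcirg1* turned from -0.16 to 0.15 with each of the 3 and 0.10 without both libraries. The other 7 members kept their direction under all 18 alternatives, and with single libraries left out *Atp6v0d2* ranged from 0.73 (KO replicate 3) to 0.96, and *Atp6v0a1* from -0.54 to -0.36. Single libraries moved others by over 1.5 times: *Atp6v0b* from 0.18 to 0.098 without KO replicate 2, *Atp6v0e* from 0.35 to 0.23 without WT replicate 2, *Atp6ap2* from 0.48 to 0.31 without KO replicate 3, and *Atp6ap1* from 0.07 to 0.11 without KO replicate 1 and 0.027 without KO replicate 3. *Tcirg1*, at -0.16, was -0.0029 without KO replicate 3, -0.057 without WT replicate 2 and -0.27 without KO replicate 1. The log2 ratio of *Atp6v0d2* to *Atp6v0d1* was 0.94 higher in KO, 0.58 with the GC correction 0.60 without both libraries and between 0.73 and 1.06 with single libraries left out.

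At an unadjusted p under 0.05 in edgeR, 4 members were counted, and 3 to 5 under the alternatives. Of all genes, 13.0% were higher and 13.2% lower at that level in edgeR, and 12.0% and 14.1% with the GC correction. The shares of all genes under the other alternatives were not counted. A true change that follows GC content would be removed with the trend, and with 3 libraries per genotype the exact test of a ratio cannot fall below 0.1.

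The replicate numbers showed no pairing of the libraries in uncorrected values: deviations of same-numbered libraries correlated at -0.20, 0.065 and 0.15, and not every library correlated best with its own number. The GC trend enters these values, and WT replicate 2 and KO replicate 3 correlated at -0.27. The check therefore cannot decide whether libraries of the same number share a batch. With the replicate block, 1 gene and 0 members passed the limits.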
